A study of Nicotiana benthamiana with 6 samples.

Results

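The genes described here are unigenes of *N. benthamiana* leaves picked by name for terpenoid, phytoalexin and sterol synthesis. A unigene is a contig of the de novo assembly that stands for 1 transcript. Members were chosen by annotation alone, as the unigenes whose NR match is a *Nicotiana* or *Solanum* protein and whose UniProt name holds one of a list of pathway words such as squalene, sterol, farnesyl, mevalonate or aristolochene. The rule found 110 unigenes among 167935. It uses no expression value, but it was drawn up with earlier results of these data known. The 110 include 27 unigenes of sterol transport and conjugation, 4 of protein farnesylation and 3 of leucine breakdown, which the names took in beside the synthesis enzymes. Of the 110, 67 had enough counts to be tested, 43 did not, and 3 of the 43 had no count in any library. The same names without the condition on the NR match would have given 35 unigenes more, which are described at the end.

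The leaves came from wild-type plants that were 5 weeks old when infiltrated with *Agrobacterium tumefaciens* LBA4404. The bacteria carried pCAMBIA2200::*MaWRKY45*, in which a CaMV35S promoter drives the coding sequence of a banana WRKY transcription factor (overexpression, 3 libraries), or the empty pCAMBIA2200 vector (mock, 3 libraries). Leaves were harvested 3 days after infiltration, and each library was made from RNA of 3 pooled plants. Both groups had therefore been exposed to the bacterium, the expression was transient, and no leaf without infiltration was sequenced.

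Plants make the building blocks of all isoprenoids by separate routes, the mevalonate route in the cytosol and the methylerythritol phosphate route in the plastid. Farnesyl diphosphate from the cytosolic route is a branch point. In *Nicotiana* one branch leads through 5-epi-aristolochene to the phytoalexin capsidiol, an antimicrobial sesquiterpenoid made upon attack, and the other leads through squalene and cycloartenol to the membrane sterols.

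Total counts ranged from 12031310 to 14285138 per library, and the members held between 0.64 and 0.881% of them. Levels below are given as TMM CPM, counts per 1000000 counts of the library after edgeR's TMM scaling, and levels of different genes are compared only as TMM FPKM, the same value per 1000 bases of effective length. A unigene was called at an edgeR quasi-likelihood p under 0.05, Benjamini-Hochberg adjusted over all 37201 tested unigenes, together with a fold change of at least 2. The unigene that matches a banana WRKY protein, c147189_g1_i1, had 118, 58.2 and 131 TMM CPM in the mock libraries and 248, 332 and 267 TMM CPM in the overexpression libraries, in replicate order (log2 fold change 1.46, SE 0.29, edgeR adjusted p = 0.0181). It was counted in mock leaves as well, and its UniProt match is a viral Transactivator/viroplasmin protein, so how much of its count is the transgene cannot be told apart from this assembly. Mock replicate 2 correlated least with its own group over all tested unigenes (mean r = 0.961, against 0.97 to 0.976 for the other libraries). Leaf markers were abundant in all libraries but unequal. The summed chlorophyll a-b binding proteins reached 7980, 16460 and 4766 TMM CPM in mock replicates 1, 2 and 3 and 4476, 3180 and 2889 TMM CPM in overexpression replicates 1, 2 and 3. Of their 21 tested unigenes 5 were called down and 1 up (28.6% called, against 4.59% of all tested unigenes). Their median log2 fold change was -1.43. The 2 RuBisCO small subunit unigenes summed to between 4335 and 12510 TMM CPM in mock and between 2949 and 5821 TMM CPM in overexpression leaves, and neither was called.

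Most of the pathway showed no called change in leaves that overexpressed *MaWRKY45*. Of the 67 tested members, 4 were called (5.97%, against 4.59% of all tested unigenes), 1 up-regulated and 3 down-regulated, which compares with 1.92% called up and 2.67% called down over all tested unigenes. The down-regulated members encode the enzymes on either side of 2,3-oxidosqualene, squalene monooxygenase and cycloartenol synthase, and a short unigene of HMG-CoA synthase. The up-regulated member is another short HMG-CoA synthase unigene. At any fold, an adjusted p under 0.05 was also reached by 4 members (5.11% of all tested unigenes), and an unadjusted p under 0.05 for 19, where 18.9% of all tested unigenes had one. The groups did not overlap in 20 members (29.9%, against 22.9% of all tested unigenes), 5 of them with overexpression higher and 15 with overexpression lower, against 11.3% and 11.5% over all tested unigenes. The median log2 fold change was -0.04 over the tested members and -0.01 over all tested unigenes. A total of 58 of the 67 tested members lay within 1 log2 unit of no change and 39 within 0.5, and the extremes were -1.64 and 1.42. In RNA of whole leaves, fewer cells of a type and less RNA per cell cannot be told apart for any member.

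The count of called members depended on single libraries. No member was called by edgeR when mock replicate 1, overexpression replicate 1 or overexpression replicate 2 was omitted, while 17, 16 and 11 members still had an unadjusted p under 0.05. DESeq2 was not run on these subsets. When mock replicate 3 was omitted 2 members were called, when overexpression replicate 3 was omitted 4, and when mock replicate 2 was omitted 8. Over all tested unigenes the calls moved with the same libraries, from 669 when mock replicate 1 was omitted to 2756 when overexpression replicate 3 was omitted. With library size alone as the scaling, 1 member was called up and 1 down, and the split over all tested unigenes turned from 714 up and 992 down to 932 up and 749 down.

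**Figure D1:**
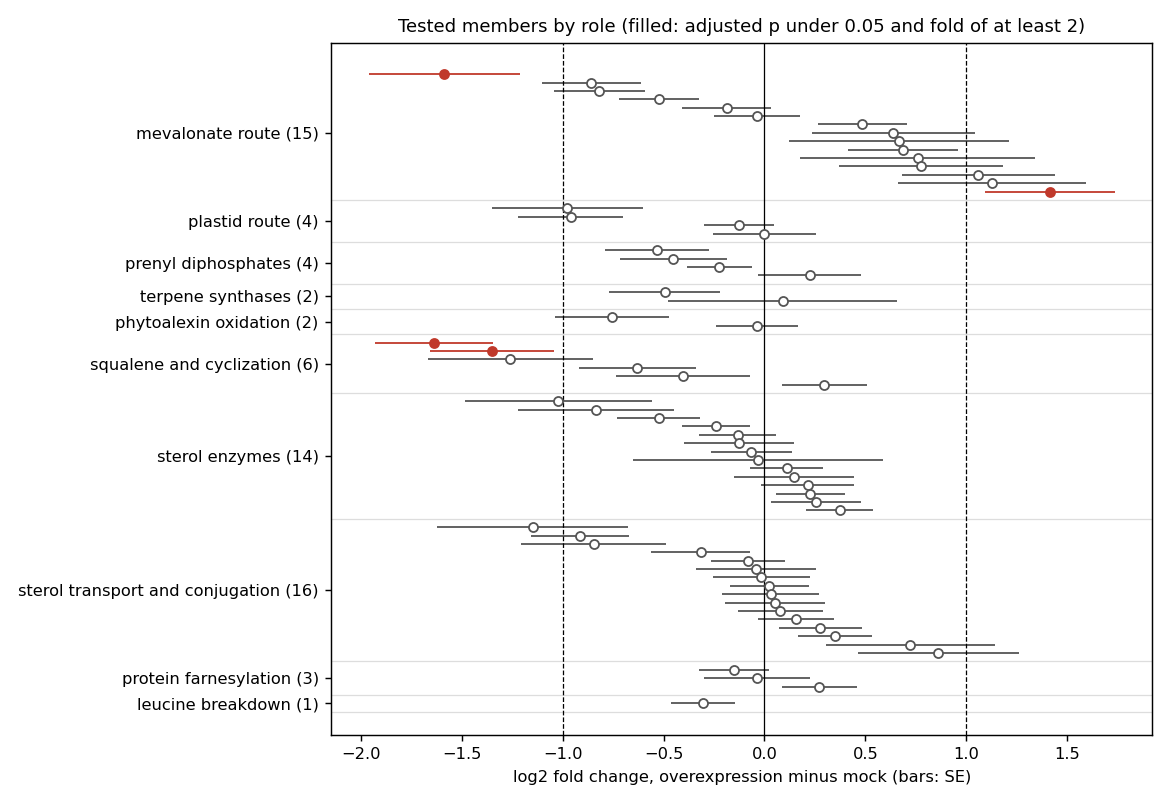
Log2 fold change of each of the 67 tested members, overexpression minus mock, with its SE (bars) and grouped by role, with the number of tested members in brackets. Filled points mark the 4 called members, of which 3 lie left of -1 and 1 lies right of 1. The mevalonate route spreads from -1.59 to 1.42, while the sterol enzymes lie between -1.02 and 0.37.

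The most abundant member was the unigene of 5-epi-aristolochene synthase, c100914_g1_i1, which converts farnesyl diphosphate to the hydrocarbon skeleton of capsidiol. Mock replicates 1, 2 and 3 held 2084, 1655 and 2841 TMM CPM of it, and overexpression replicates 1, 2 and 3 held 1729, 1664 and 1276 TMM CPM. The ranges overlapped, since mock replicate 2 was below 2 of the 3 overexpression libraries. Its log2 fold change was -0.50 (SE 0.27, 95% interval -1.10 to 0.11, edgeR adjusted p = 0.38), and the interval holds both no change and a fall of 1 log2 unit. This 1 unigene carried between 21.2 and 29.9% of the members' counts and between 0.136 and 0.263% of all counts in a library. Per length it ranked first in both groups, with a mean of 1109 TMM FPKM in mock and 785 TMM FPKM in overexpression leaves. The largest *FPP synthase* unigene ranked second with 615 and 424 TMM FPKM, and within each group its highest library was below the lowest library of 5-epi-aristolochene synthase.

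The next step to capsidiol is catalysed by 5-epi-aristolochene 1,3-dihydroxylase, a cytochrome P450 that adds both hydroxyl groups. Its main unigene, c98538_g6_i1, had 244, 219 and 318 TMM CPM in the mock libraries and 262, 279.5 and 219 TMM CPM in the overexpression libraries. The overexpression libraries all lay within the mock range, whose highest library was mock replicate 3, and the log2 fold change was -0.04 (SE 0.20, 95% interval -0.49 to 0.42, edgeR adjusted p = 0.953). A smaller unigene of the same enzyme, c15104_g1_i1, had 70.3, 31.0 and 45.1 TMM CPM in mock and 31.6, 32.1 and 22.9 TMM CPM in overexpression leaves (log2 fold change -0.76, SE 0.28, edgeR adjusted p = 0.172). Mock replicate 2 overlapped the overexpression libraries here, and without that replicate the unigene was called (log2 fold change -1.01, edgeR adjusted p = 0.0227).

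The other terpene synthase members were near the limit of detection. Vetispiradiene synthase makes the precursor of solavetivone-type phytoalexins in other Solanaceae, and 1 of its 3 unigenes, c97146_g2_i2, was tested, at 0.359 to 1.27 TMM CPM in mock and 0.439 to 1.33 TMM CPM in overexpression leaves (log2 fold change 0.09, SE 0.57, edgeR adjusted p = 0.958). The unigene c5092_g1_i1 held 15, 5 and 14 counts in mock and 0, 2 and 3 counts in overexpression leaves, and c135559_g1_i1 held 5, 8 and 14 counts in mock and 0, 4 and 2 counts in overexpression leaves. In both, all mock libraries were above all overexpression libraries, but neither had enough counts to be tested. With no filter on counts, c5092_g1_i1 was called down (log2 fold change -2.77, edgeR adjusted p = 0.0197), as it also was without mock replicate 2 (-3.14, adjusted p = 0.0368). The 3 germacrene D synthase unigenes had at most 3 counts in any library, and no member had terpene synthase or linalool in its name.

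On the sterol branch, squalene monooxygenase was the member with the largest change. The enzyme, also called squalene epoxidase, oxidises squalene to 2,3-oxidosqualene. Its main unigene, c96476_g6_i2, whose NR match is squalene epoxidase 3-like, had 577, 252 and 549 TMM CPM in mock replicates 1, 2 and 3 and 146, 156 and 141 TMM CPM in overexpression replicates 1, 2 and 3. All mock libraries were above all overexpression libraries, which lay close together, while mock replicate 2 stood at 0.447 of the mean of the other mock libraries. The level fell by 1.64 on the log2 scale (SE 0.29, 95% interval -2.29 to -0.98, edgeR adjusted p = 0.0124), a level 3.11-fold higher in mock. The call was kept in 11 of 14 alternative analyses and lost without mock replicate 1 (log2 fold change -1.45, adjusted p = 0.0617), without overexpression replicate 1 (-1.63, adjusted p = 0.0601) and without overexpression replicate 2 (-1.67, adjusted p = 0.0529). Per length this unigene ranked 4 among the tested members in mock and 17 in overexpression leaves, at means of 192 and 61.7 TMM FPKM.

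A further squalene monooxygenase unigene, c95754_g2_i1, behaved differently between the mock libraries. It had 46.5, 104 and 54.1 TMM CPM in mock and 44.1, 37.1 and 51.0 TMM CPM in overexpression leaves, so mock replicate 2 was here the highest library and the groups overlapped (log2 fold change -0.63, SE 0.29, edgeR adjusted p = 0.274). Its share of the enzyme's counts was 7.46, 29.2 and 8.95% in the mock libraries and 23.2, 19.2 and 26.6% in the overexpression libraries. Mock replicate 2 thus resembled the overexpression libraries in the mix of the 2 unigenes, and mock replicates 1 and 3 did not. The remaining pair of squalene monooxygenase unigenes had at most 6 counts in a library. Summed over all 4, the enzyme's unigenes reached 623.5, 356 and 604 TMM CPM in mock and 190.1, 193 and 192 TMM CPM in overexpression leaves, without overlap.

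Cycloartenol synthase, which folds 2,3-oxidosqualene into the first plant sterol, was also down-regulated. Its main unigene, c97964_g1_i1, had 38.2, 72.2 and 30.5 TMM CPM in the mock libraries and 16.3, 16.7 and 22.3 TMM CPM in the overexpression libraries. The groups did not overlap, and the highest value was that of mock replicate 2. The level fell by 1.35 on the log2 scale (SE 0.31, 95% interval -2.03 to -0.67, edgeR adjusted p = 0.0327). It was called in 7 of 14 alternative analyses. Without mock replicate 2 the adjusted p was 0.0236 but the log2 fold change was -0.91, under the fold threshold, and without mock replicate 1, overexpression replicate 1 or overexpression replicate 2 the adjusted p was 0.0761, 0.121 and 0.125. The other 5 cycloartenol synthase unigenes had at most 7 counts in any library.

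Squalene synthase, which joins a pair of farnesyl diphosphate molecules into squalene and so stands just before these steps, gave other values. Its main unigene, c54916_g1_i1, had 206, 319 and 230.3 TMM CPM in mock and 340.1, 301 and 287 TMM CPM in overexpression leaves (log2 fold change 0.30, SE 0.21, 95% interval -0.17 to 0.76, edgeR adjusted p = 0.518). Mock replicate 2 lay among the overexpression libraries and mock replicates 1 and 3 lay below them. Taken per length, the ratio of the main squalene monooxygenase unigene to the main squalene synthase unigene was 2.39, 0.675 and 2.04 in the mock libraries and 0.367, 0.443 and 0.42 in the overexpression libraries, without overlap. The ratio of 5-epi-aristolochene synthase to squalene synthase overlapped (10.4, 5.36 and 12.8 in mock, 5.25, 5.71 and 4.59 in overexpression leaves). That of the main *FPP synthase* unigene to squalene synthase did not (5.66, 3.28 and 6.75 in mock, 3.07, 3.13 and 2.15 in overexpression leaves). The exact two-sided permutation test of 3 against 3 libraries cannot give a p below 0.1, and the ratios are given as a description with no test. A minor squalene synthase unigene of 549 bases, c87646_g3_i1, had 1.53 to 2.56 TMM CPM in mock and 0.586 to 0.959 TMM CPM in overexpression leaves (log2 fold change -1.26, SE 0.41, edgeR adjusted p = 0.117).

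**Figure D2:**
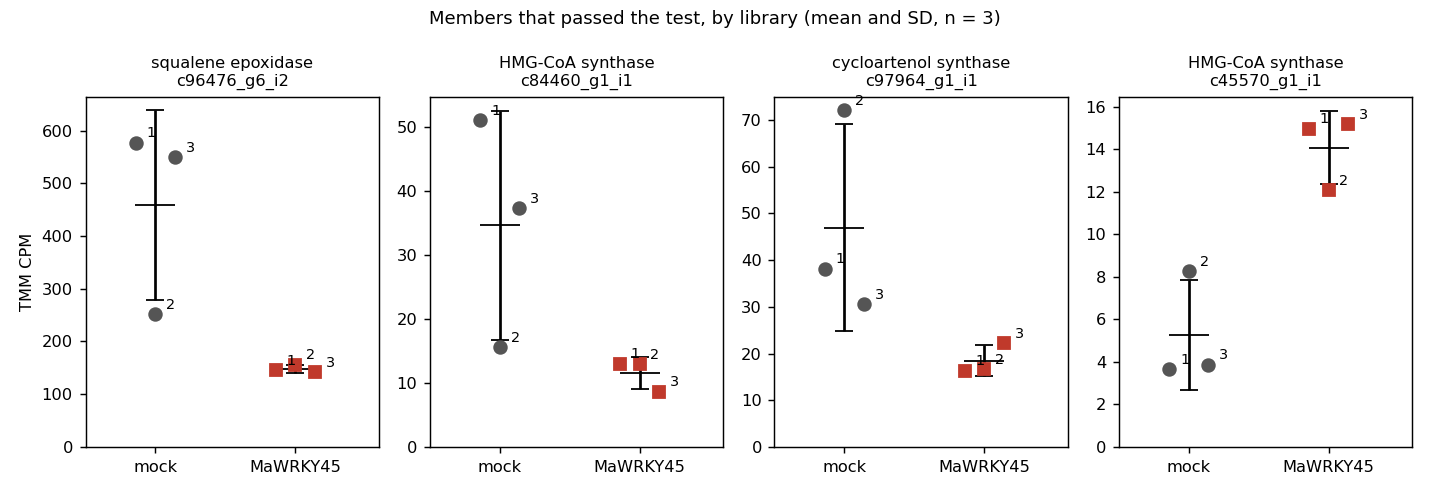
TMM CPM of the 4 called members in each library (circles, mock; squares, overexpression; small digits, replicate number), with the group mean (horizontal line) and SD (bars), n = 3. Squalene monooxygenase (left) lies at 141 to 156 TMM CPM in all overexpression libraries, and mock replicate 2 is the mock library nearest to the overexpression group for both HMG-CoA synthase unigenes and for squalene monooxygenase, but the farthest for cycloartenol synthase.

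The mevalonate route held members that moved in opposite directions. It had 15 tested unigenes of 19, of which 2 were called (13.3%, against 4.59% of all tested unigenes), 1 up and 1 down. A positive log2 fold change was found in 9 and a negative one in 6, with a median of 0.64. Of those 9, all but the main HMG-CoA synthase unigene (175.5 TMM FPKM in mock) had low mock means, 0.724 to 9.49 TMM FPKM. Summed over the route, the unigenes reached 1374, 1073 and 1625 TMM CPM in mock and 1256, 1295 and 977 TMM CPM in overexpression leaves, with overlapping ranges and a mean in overexpression leaves of 0.866 times that in mock. HMG-CoA synthase condenses acetyl-CoA and acetoacetyl-CoA. Its main unigene, c97741_g2_i1 of 2055 bases, had 324, 279.6 and 375 TMM CPM in mock and 508, 510.5 and 351 TMM CPM in overexpression leaves. Overexpression replicate 3 lay within the mock range, and the log2 fold change was 0.48 (SE 0.22, 95% interval -0.002 to 0.972, edgeR adjusted p = 0.266).

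Both called unigenes of the route are short stretches annotated as HMG-CoA synthase. The unigene c84460_g1_i1 of 524 bases had 51.0, 15.6 and 37.3 TMM CPM in mock and 13, 13 and 8.63 TMM CPM in overexpression leaves. The groups did not overlap, with mock replicate 2 close to the overexpression libraries, and the level fell by 1.59 on the log2 scale (SE 0.38, edgeR adjusted p = 0.0392). This call was kept in 5 of 14 alternative analyses. Of the 6 libraries only mock replicate 2 could be left out without losing it, and the adjusted p without each of the others ranged from 0.0695 to 0.146.

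The unigene c45570_g1_i1 of 750 bases had 3.65, 8.27 and 3.86 TMM CPM in mock and 15.0, 12.1 and 15.2 TMM CPM in overexpression leaves. Every overexpression library was above every mock library, and the level rose by 1.42 on the log2 scale (SE 0.32, edgeR adjusted p = 0.0334), or 2.67-fold. The call was kept in 10 of 14 alternative analyses, and it was lost without mock replicate 1 (adjusted p = 0.128), mock replicate 3 (0.104), overexpression replicate 1 (0.103) and overexpression replicate 2 (0.0663). These unigenes carried between 2.29 and 13.4% (c84460_g1_i1) and between 0.926 and 4.03% (c45570_g1_i1) of the enzyme's counts. Reads of nearly identical copies can be divided among such short unigenes by the estimation of counts, so whether they stand for separate genes was not tested. Summed over its 6 unigenes, HMG-CoA synthase reached 380.5, 306 and 417 TMM CPM in mock and 539.7, 539 and 377.5 TMM CPM in overexpression leaves, with overlapping ranges.

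**Figure D3:**
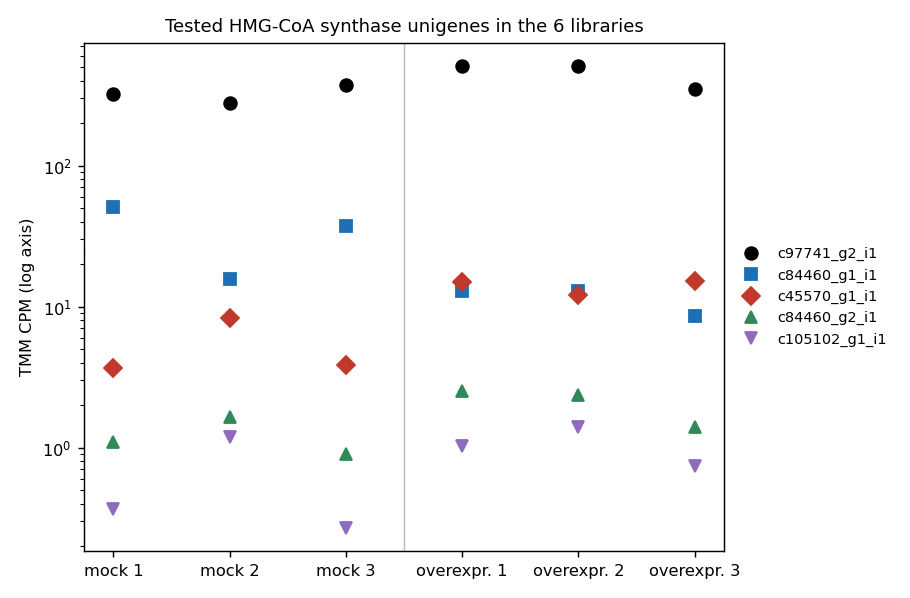
TMM CPM (log axis) of the 5 tested HMG-CoA synthase unigenes in the 6 libraries, 1 symbol per unigene. The main unigene stays between 279.6 and 510.5 TMM CPM, while c84460_g1_i1 (squares) is lower and c45570_g1_i1 (diamonds) higher in all overexpression libraries than in any mock library.

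Downstream in the route, 2 enzymes lay lower in all overexpression libraries without passing the test. HMG-CoA reductase makes mevalonate and is the classical control point of the route. Its main unigene, c82871_g1_i2, which was named for its place in the route after its values were seen, had 273, 194 and 345 TMM CPM in mock and 147, 169 and 144 TMM CPM in overexpression leaves (log2 fold change -0.82, SE 0.23, edgeR adjusted p = 0.0694). Mevalonate kinase, c93032_g1_i5, the only unigene of the enzyme that phosphorylates mevalonate first, had 308, 201 and 363 TMM CPM in mock and 184, 168 and 129 TMM CPM in overexpression leaves (log2 fold change -0.86, SE 0.24, edgeR adjusted p = 0.0778). In both, mock replicate 2 was the mock library nearest to the overexpression group, and without it both were called (HMG-CoA reductase -1.02, adjusted p = 0.00773; mevalonate kinase -1.07, adjusted p = 0.00889). The 4 minor HMG-CoA reductase unigenes took a share of at most 16.3% each, and their log2 fold changes ranged from -0.19 to 1.12 with no call. Per length, the ratio of the main HMG-CoA reductase unigene to the main HMG-CoA synthase unigene was 0.502, 0.413 and 0.547 in mock and 0.173, 0.197 and 0.245 in overexpression leaves, without overlap. This ratio, too, is a description with no test.

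The last steps of the route were mixed. The main phosphomevalonate kinase unigene, c93040_g2_i4, had 192.5, 180.2 and 243 TMM CPM in mock and 217, 229 and 153.5 TMM CPM in overexpression leaves (log2 fold change -0.04, SE 0.21, edgeR adjusted p = 0.954), with wide overlap. Diphosphomevalonate decarboxylase, which yields isopentenyl diphosphate, had unigenes with log2 fold changes of opposite sign. The main one, c92720_g5_i1, had 179.5, 139 and 215 TMM CPM in mock and 119, 132 and 119.8 TMM CPM in overexpression leaves (log2 fold change -0.52, SE 0.20, edgeR adjusted p = 0.175). The minor one, c92720_g3_i2, had 11.9, 5.88 and 7.81 TMM CPM in mock and 12.1, 14 and 15.1 TMM CPM in overexpression leaves (log2 fold change 0.69, SE 0.27, edgeR adjusted p = 0.199). Neither passed the test, although the groups did not overlap in either. The minor unigene's share of the enzyme's counts was 3.5 to 6.2% in mock and 9.22 to 11.2% in overexpression leaves.

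Isopentenyl diphosphate isomerase, which interconverts both C5 building blocks, and farnesyl diphosphate synthase, which joins them, follow. The isomerase, c92806_g2_i3, had 168, 102 and 168 TMM CPM in mock and 204, 186 and 122 TMM CPM in overexpression leaves (log2 fold change 0.22, SE 0.26, edgeR adjusted p = 0.714), with overlap. The main farnesyl diphosphate synthase unigene, c91711_g1_i1, had 812, 727 and 1078 TMM CPM in mock and 726, 654 and 430.3 TMM CPM in overexpression leaves (log2 fold change -0.53, SE 0.26, 95% interval -1.11 to 0.04, edgeR adjusted p = 0.308). All overexpression libraries were lower, but mock replicate 2 exceeded overexpression replicate 1 by less than 1 TMM CPM. The rule also took in protoheme IX farnesyltransferase, c82323_g1_i2, which uses farnesyl diphosphate to make heme and had 64.8 to 67.2 TMM CPM in mock and 50.3 to 60.7 TMM CPM in overexpression leaves (log2 fold change -0.23, SE 0.16, edgeR adjusted p = 0.523).

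**Figure D4:**
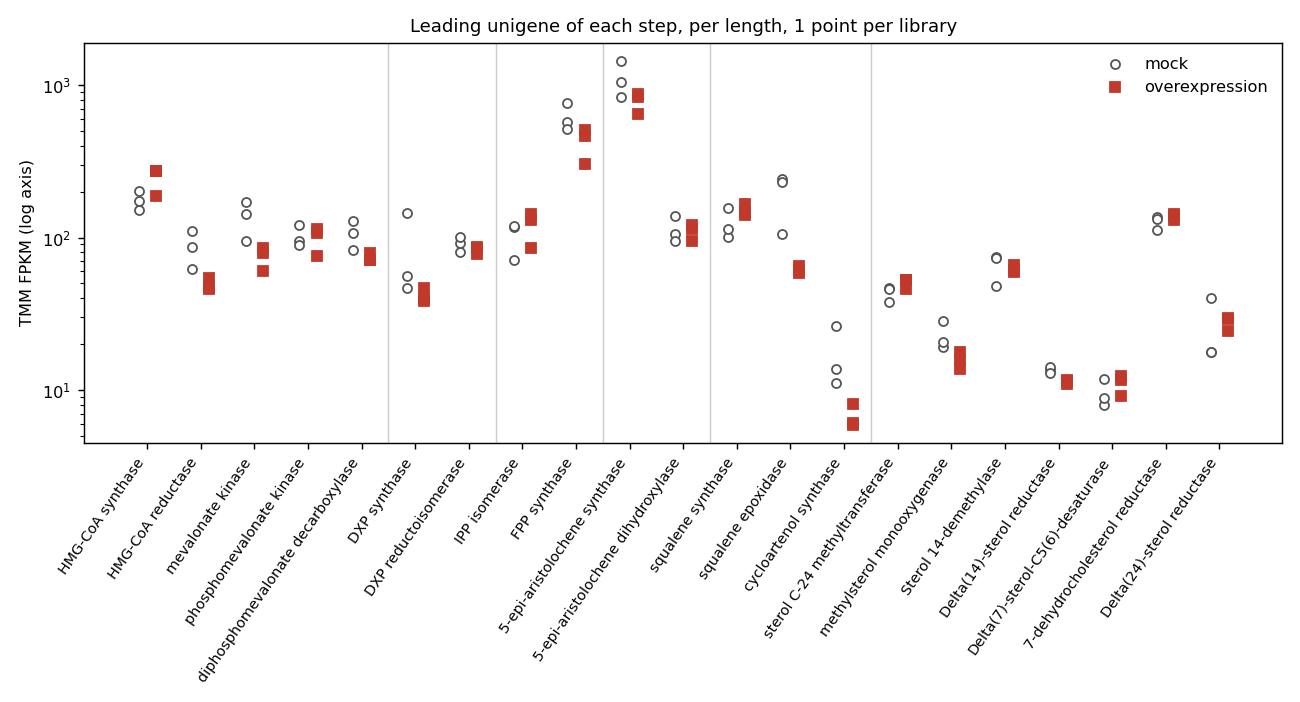
TMM FPKM (log axis) of the leading unigene of each step in each library (open circles, mock; filled squares, overexpression), ordered from the mevalonate and plastid routes (left) through farnesyl diphosphate and capsidiol synthesis to the sterols (right). The 5-epi-aristolochene synthase unigene is the highest in each group, with means of 1109 and 785 TMM FPKM, and squalene monooxygenase (squalene epoxidase on the axis) separates the groups at means of 192 and 61.7 TMM FPKM.

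Of the plastid route, the rule took the first 2 enzymes, and none of their 4 tested unigenes was called. DXP synthase opens the route, whose products feed carotenoids and the side chain of chlorophyll. Its main unigene, c97030_g1_i1, had 149, 388 and 124 TMM CPM in mock and 126, 107 and 103 TMM CPM in overexpression leaves (log2 fold change -0.98, SE 0.37, edgeR adjusted p = 0.183). The value of mock replicate 2 was far above that of any other library, mock replicate 3 lay within the overexpression range, and mock replicate 2 was also the library with the most chlorophyll a-b binding protein counts (16460 TMM CPM), whose part in the result was not tested. A further DXP synthase unigene, c94760_g2_i2, had 15.9, 24.9 and 21.5 TMM CPM in mock and 13.8, 10.5 and 7.74 TMM CPM in overexpression leaves, without overlap (log2 fold change -0.96, SE 0.26, edgeR adjusted p = 0.0639). The DXP synthase 2 unigene, c160838_g1_i1, had 7.82 to 11.8 TMM CPM in mock and 7.6 to 11.7 TMM CPM in overexpression leaves. DXP reductoisomerase, c92498_g1_i1, which catalyses the next step, had 172, 196 and 215 TMM CPM in mock and 167, 184 and 184 TMM CPM in overexpression leaves (log2 fold change -0.12, SE 0.17, edgeR adjusted p = 0.774).

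The enzymes that turn cycloartenol into the end sterols varied less. Of 23 unigenes 14 were tested, none was called, 6 had a positive and 8 a negative log2 fold change, and the median was -0.05. The most abundant, 7-dehydrocholesterol reductase (c95678_g1_i1), which removes a ring double bond late in the pathway, had 275, 335 and 323 TMM CPM in mock and 348, 318 and 339.6 TMM CPM in overexpression leaves (log2 fold change 0.11, SE 0.18, 95% interval -0.29 to 0.51, edgeR adjusted p = 0.812). These ranges overlapped, with mock replicate 1 the lowest library. The unigene c27392_g1_i1, named after Sterol 4-C-methyltransferase strm-1 of the worm *C. elegans* but matched in NR to an uncharacterized *Nicotiana* protein, had 178, 286 and 183 TMM CPM in mock and 277, 273 and 223 TMM CPM in overexpression leaves (log2 fold change 0.25, SE 0.22, edgeR adjusted p = 0.618). Its mock replicate 2 was the highest of the 6 libraries, and mock replicates 1 and 3 were below all overexpression libraries.

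The methylsterol monooxygenases remove methyl groups from the sterol ring. The unigene of methylsterol monooxygenase 1-1, c92848_g2_i1, which had the lowest p of the tested sterol enzymes, had 31.1, 46.4 and 33.5 TMM CPM in mock and 25.8, 22.5 and 29.0 TMM CPM in overexpression leaves, without overlap (log2 fold change -0.52, SE 0.21, edgeR adjusted p = 0.195). That of methylsterol monooxygenase 2-2, c94570_g1_i3, had 10.4, 12.1 and 7.99 TMM CPM in mock and 2.93, 4.61 and 9.51 TMM CPM in overexpression leaves (log2 fold change -0.83, SE 0.39, edgeR adjusted p = 0.28). Its overexpression replicate 3 lay within the mock range, and without that library the unigene was called (log2 fold change -1.42, adjusted p = 0.0247). In the other direction, cycloartenol-C-24-methyltransferase 1 (c89791_g4_i1), which adds a methyl group to the sterol side chain, had 44.5, 42.1 and 52.6 TMM CPM in mock and 63.5, 57.4 and 59.2 TMM CPM in overexpression leaves, without overlap (log2 fold change 0.37, SE 0.17, edgeR adjusted p = 0.26). Delta(24)-sterol reductase, c96397_g2_i1, which finishes the side chain, had 34.0, 75.7 and 33.8 TMM CPM in mock and 46.2 to 56.7 TMM CPM in overexpression leaves (log2 fold change 0.15, SE 0.30, edgeR adjusted p = 0.854). Here the whole overexpression group lay between mock replicate 2 and the other mock libraries. Of the 4 unigenes in these sentences, all but c92848_g2_i1 were named after their values were seen.

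The proteins that carry or conjugate sterols made up 27 unigenes, of which 16 were tested and none called, with a median log2 fold change of 0.03. Oxysterol-binding protein-related proteins move sterols and other lipids between membranes. The most abundant, related protein 3A (c94925_g1_i1), had 255, 218 and 318.5 TMM CPM in mock and 296.5, 362 and 299.7 TMM CPM in overexpression leaves (log2 fold change 0.28, SE 0.20, edgeR adjusted p = 0.537), with overlap. Related protein 2A (c100165_g1_i4) had 131, 102 and 174 TMM CPM in mock and 77.9, 84.3 and 53.5 TMM CPM in overexpression leaves (log2 fold change -0.91, SE 0.24, edgeR adjusted p = 0.0603). All its overexpression libraries were below all mock libraries, and without mock replicate 2 it was called (log2 fold change -1.09, adjusted p = 0.0138). The unigene c101065_g1_i7 carries the name of related protein 1D but its NR match is a DXP synthase, so its identity is in doubt. It had 22.6 to 31.0 TMM CPM in mock and 31.8 to 34.8 TMM CPM in overexpression leaves (log2 fold change 0.35, SE 0.18, edgeR adjusted p = 0.357).

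Sterol glucosyltransferases attach glucose to sterols, and their 5 tested unigenes had log2 fold changes from -0.32 to 0.72 with edgeR adjusted p of at least 0.406. Sterol acyltransferases form sterol esters. The main member with acyltransferase in its name, lecithin-cholesterol acyltransferase-like 4 (c64049_g1_i1), had 179, 226 and 173 TMM CPM in mock and 200.3, 169 and 178 TMM CPM in overexpression leaves (log2 fold change -0.08, SE 0.18, edgeR adjusted p = 0.869). It was placed with the sterol acyltransferases by name alone, and whether it forms sterol esters was not tested. Protein farnesylation attaches farnesyl to signalling proteins, and its tested unigenes were at most 0.27 log2 units from no change. Farnesylcysteine lyase (c82041_g1_i1), which recycles the farnesyl group, had 47.1, 61.4 and 53.4 TMM CPM in mock and 69.1, 72.4 and 53.8 TMM CPM in overexpression leaves (log2 fold change 0.27, SE 0.19, edgeR adjusted p = 0.499), and the beta subunit of protein farnesyltransferase (c90774_g3_i1) had 23.3 to 24.8 TMM CPM in mock and 19.5 to 23.0 TMM CPM in overexpression leaves (log2 fold change -0.15, SE 0.17, edgeR adjusted p = 0.712). HMG-CoA lyase (c95511_g4_i1), which consumes HMG-CoA in leucine breakdown and shares only its substrate with the mevalonate route, had 45.6, 45.2 and 49.6 TMM CPM in mock and 37.4, 36.2 and 40.1 TMM CPM in overexpression leaves, without overlap (log2 fold change -0.30, SE 0.16, edgeR adjusted p = 0.349).

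The members differed among themselves most in mock replicate 2. The median coefficient of variation over the tested members was 26.6% in mock and 15.8% in overexpression leaves, against 24.8% and 20.8% over all tested unigenes. Mock replicate 2 was the lowest mock library for 27 of the 67 tested members (40.3%, against 35.4% of all tested unigenes) and the highest for 30 (44.8%, against 37.8%). By role these members were unevenly placed. It was the lowest mock library for 9 of 15 members of the mevalonate route, for 3 of 4 that make or use prenyl diphosphates and for both 5-epi-aristolochene dihydroxylase unigenes. It was the highest for 4 of 6 in squalene formation and cyclization and for 9 of 14 sterol enzymes. Its ratio to the mean of the other mock libraries was 0.447 for the main squalene monooxygenase unigene, 0.627 for HMG-CoA reductase, 0.672 for 5-epi-aristolochene synthase, 2.1 for cycloartenol synthase, 2.23 for Delta(24)-sterol reductase and 2.84 for the main DXP synthase unigene. Among the 67, 11 members were more than 1.5 times lower and 18 more than 1.5 times higher in it, where 6468 and 6534 of all 37201 tested unigenes were. Nothing in the labels sets this library apart from the other mock libraries, and the part of its leaf marker level in these values was not tested.

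**Figure D5:**
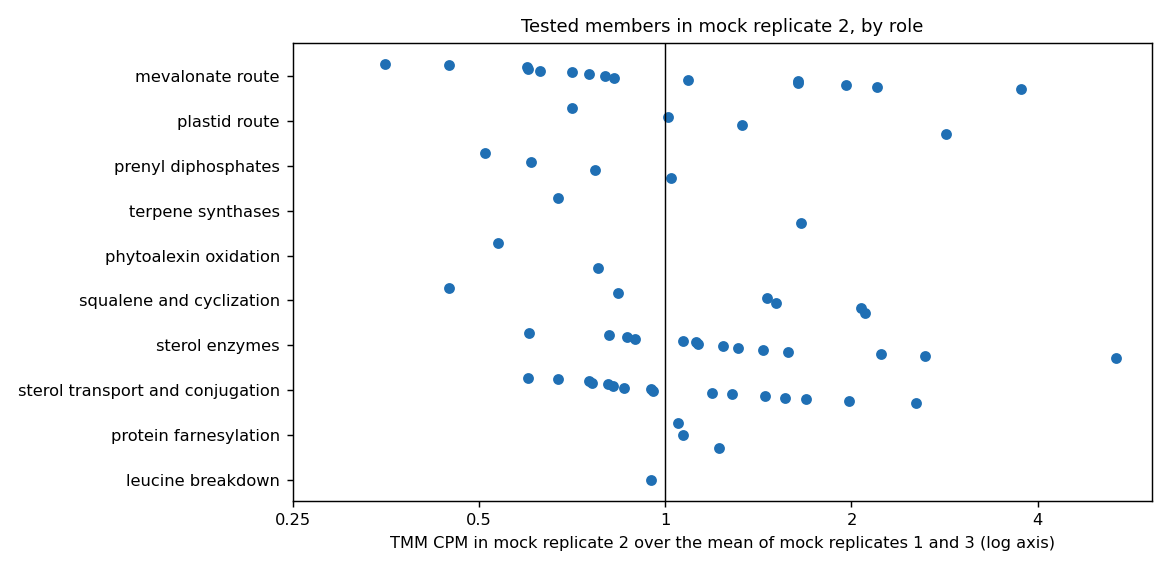
TMM CPM of each tested member in mock replicate 2 divided by the mean of mock replicates 1 and 3 (log axis), by role. Points left of 1 are lower in mock replicate 2, as for squalene monooxygenase at 0.447, and points right of 1 are higher, as for the main DXP synthase unigene at 2.84 and a minor methylsterol monooxygenase unigene at 5.35.

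The 43 members that could not be tested were short, with a median length of 382 bases against 1978 bases for the tested ones. They held at most 48 counts over the 6 libraries, and 27 of them fewer than 10. Apart from both vetispiradiene synthase unigenes described above, they give no level that could be compared.

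A wider list of the same pathways held 67 further unigenes whose names the rule left out, of which 44 were tested. In this list 8 were called (18.2%, against 4.59% of all tested unigenes), 1 up and 7 down, and the median log2 fold change was -0.32. The list was chosen by name with earlier results of these data known, and its calls depended on single libraries, with 3, 9 and 5 left when mock replicate 1, 2 or 3 was omitted and 1, 3 and 6 left when overexpression replicate 1, 2 or 3 was omitted. All 5 unigenes of the later plastid route, which ends with the release of the building blocks, had negative log2 fold changes between -0.54 and -0.18, and none was called. In 4 of them the overexpression libraries were all lower than the mock libraries, which held for 11.5% of all tested unigenes. The summed chlorophyll a-b binding proteins, given above, were also lower in overexpression leaves, and their part in these values was not tested.

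The unigenes named next from the wider list are those that were called, with uncalled unigenes of geranylgeranyl diphosphate synthase set beside them. Premnaspirodiene oxygenase, a cytochrome P450 of solavetivone synthesis in henbane, gave its name to 23 unigenes. Of these 13 were tested and 3 were called down (23.1%, against 2.67% of all tested unigenes called down). Some of the 23 also match cytochrome P450 71D7 or 5-epiaristolochene 1,3-dihydroxylase in NR. The name alone therefore does not settle what they make. The called c147235_g1_i1 had 51.2, 69.7 and 142 TMM CPM in mock and 26.3, 35.2 and 18.0 TMM CPM in overexpression leaves (log2 fold change -1.73, SE 0.37, edgeR adjusted p = 0.0267). The others that were called, c89785_g1_i2 and c96211_g1_i2, fell by 1.94 and 2.49 on the log2 scale (edgeR adjusted p = 0.0184 and 0.0392). The groups did not overlap in 5 of the 13 (38.5%, against 22.9% of all tested unigenes). In 3 of these overexpression was lower, and in 2, which were not called, it was higher. Among the enzymes that make or use longer prenyl chains, solanesyl diphosphate synthase 1 (c92526_g2_i1), which makes the side chain of plastoquinone, had 552, 284 and 486.5 TMM CPM in mock and 122, 73.2 and 196.5 TMM CPM in overexpression leaves, a fall of 1.75 on the log2 scale (SE 0.36, edgeR adjusted p = 0.0223).

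Geranylgeranyl diphosphate reductase (c89902_g1_i1), which makes the phytol chain of chlorophyll, had 238, 479.7 and 175 TMM CPM in mock and 114, 93.6 and 74.0 TMM CPM in overexpression leaves (log2 fold change -1.67, SE 0.35, edgeR adjusted p = 0.0228). The order of its mock libraries was that of the chlorophyll a-b binding proteins, with replicate 2 highest and replicate 3 lowest. Geranylgeranyl diphosphate synthase makes the substrate of that reductase. A small subunit unigene, c87909_g1_i1, had 9.13, 1.27 and 7.45 TMM CPM in mock and 0.439 to 0.516 TMM CPM in overexpression leaves (log2 fold change -3.61, SE 0.68, edgeR adjusted p = 0.015). A further small subunit unigene, c98941_g2_i1, was higher per length in mock (mean 30.7 against 4.76 TMM FPKM). It was not called (log2 fold change -0.20, SE 0.16, edgeR adjusted p = 0.58). The only unigene of the wider list that was called up was another of this enzyme, c91676_g1_i1, with 0.803, 1.94 and 0.539 TMM CPM in mock and 4.59, 2.93 and 5.09 TMM CPM in overexpression leaves (log2 fold change 1.92, SE 0.47, edgeR adjusted p = 0.0439). With the same NR match, c92183_g1_i1 was higher per length in mock (mean 17 against 0.694 TMM FPKM) and was not called (log2 fold change 0.43, SE 0.26, edgeR adjusted p = 0.442). Beta-amyrin 28-oxidase (c54861_g1_i2), which oxidises a triterpene made from 2,3-oxidosqualene, had 34.8, 45.1 and 39.5 TMM CPM in mock and 18.7, 16.8 and 18.1 TMM CPM in overexpression leaves (log2 fold change -1.15, SE 0.18, edgeR adjusted p = 0.00638). This unigene alone of the 8 was called in all 14 alternative analyses, those without single libraries included.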

How the data were processed

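The authors trimmed paired reads of *N. benthamiana* leaf mRNA with Trimmomatic, built unigenes from them with Trinity and aligned the reads back with Bowtie2. Raw counts, deposited as 1 joint table, are the authors' RSEM estimates of read pairs for each unigene and carry no normalization. The expected counts, deposited library by library, are whole numbers that match the joint table in all 6 libraries. The deposited TPM and FPKM columns, which the authors obtained with RSEM in the same run, entered no test. No genome was used and no reads were reprocessed.

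The 3 overexpression libraries were compared with the 3 mock libraries by edgeR's quasi-likelihood test (R 4.3.3, edgeR 4.0.16, with filterByExpr and TMM scaling) on the whole table, with Benjamini-Hochberg adjustment over 37201 tested unigenes. The SE is the log2 fold change divided by the root of the F statistic, and 95% intervals use the test's degrees of freedom. TMM FPKM divides TMM CPM by the effective lengths in the deposited single-library files. On simulated counts with 200 of 37201 unigenes altered for this comparison, edgeR recovered 163 (81.5%) with 11 false calls. Recovery is given for all altered unigenes together. The rate for folds as small as those of the members was not tested, and the 81.5% is not a rate for such folds. Alternatives were DESeq2 1.42.0, limma-voom (limma 3.58.1), glmTreat, other scalings and filters, a replicate block, each library left out, only enzyme roles, and names without the NR condition.

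Named unigenes are all called members and, per role, the 2 tested members with the highest mean level and the one with the lowest p. Other members were named after their values were seen. The members, the roles and the wider list were chosen with earlier results of these data known. Each library pooled 3 plants, and p-values measure the spread between these pools.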

Additional observations from a re-analysis of the deposited data

How the results depend on the processing

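Of 350 values of the 25 members named by rule under 14 alternatives, 315 kept their direction and side of the threshold, 23 lost and 3 gained the call, and 9 changed sign. Of these 9, none was called. On library size alone, c98538_g6_i1 moved to 0.087, c92498_g1_i1 to 0.004 and c64049_g1_i1 to 0.042. With libraries left out in turn, c98538_g6_i1 ranged from -0.154 to 0.125, c64049_g1_i1 from -0.161 to 0.042 and c97146_g2_i2 from -0.276 to 0.47. The cause was not tested.

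The 4 called members became 2 (1 up, 1 down) with limma-voom, on library size alone and with the replicate block, 3 with glmTreat, and 4 with DESeq2. With libraries left out they ranged from 0 to 8, the up-regulated from 0 to 1 and the down-regulated from 0 to 7. The median log2 fold change of the members was 0.083 on library size alone, where the median of all tested unigenes moved from -0.013 to 0.112 and the split of all calls from 714 up and 992 down to 932 up and 749 down. It was -0.125 for enzyme roles only, and ranged from -0.118 to -0.055 with libraries left out. Over all tested unigenes, 1706 were called by edgeR, 2562 of 160339 by DESeq2 and 4201 of 160339 with no filter.

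Same-numbered mock and overexpression libraries did not deviate together (r = -0.11, -0.13 and -0.09), so the numbers were not taken as pairs. The replicate block left c96476_g6_i2 and c45570_g1_i1 called and 1430 unigenes over the whole table. At this depth 43 members, with at most 48 counts over the 6 libraries, could not be tested.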

Other observations

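The 35 unigenes with the same names but another NR match included 23 matched to a yeast. These 23 summed to 50, 32 and 22 counts in mock replicates 1, 2 and 3 and to 4, 0 and 2 counts in overexpression replicates 1, 2 and 3, and none had enough counts for the test. All unigenes with a yeast match together held 8249 to 14792 counts in the mock libraries and 442 to 1387 counts in the overexpression libraries. The NR condition kept yeast sterol genes, which were counted mostly in mock libraries, out of the 110 members.

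Of the 12 unigenes with neither match, 4 were tested and 1 was called. It is a further HMG-CoA synthase unigene, c84460_g3_i2 of 935 bases with a *Capsicum* match, with 13.9, 5.66 and 11.4 TMM CPM in mock and 4.52, 2.93 and 1.55 TMM CPM in overexpression leaves (log2 fold change -1.79, SE 0.43, edgeR adjusted p = 0.0412). Its contig name shares the c84460 cluster with the called member c84460_g1_i1, and in both mock replicate 2 was the lowest mock library. Another HMG-CoA synthase member of that cluster, c84460_g2_i1, went the other way and was not called. Its means were 7.46 TMM FPKM in mock and 12.6 TMM FPKM in overexpression leaves, and mock replicate 2 was its highest mock library. A fragment of 260 bases named 5-epiaristolochene 1,3-dihydroxylase, c25395_g1_i1, had a mean of 2.41 TMM CPM in mock and 0.848 TMM CPM in overexpression leaves (log2 fold change -1.49, SE 0.43, edgeR adjusted p = 0.0785). In the remaining tested unigenes the groups overlapped. They were c102246_g1_i1, named 5-epi-aristolochene synthase (log2 fold change -0.49, SE 0.33, edgeR adjusted p = 0.495), and c99591_g9_i1, named phosphomevalonate kinase (log2 fold change 0.98, SE 0.51, edgeR adjusted p = 0.353).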
